A study of Gallus gallus with 6 samples.

Results

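Ovomucoid (OVM), avidin (AVD), orosomucoid 1 (ORM1) and clusterin (CLU) are 4 secreted proteins of the egg white whose mRNA was measured in the magnum, the oviduct segment that makes and secretes the egg white. They were chosen by their Ensembl identifiers, and all 4 were found among the 19152 genes of the deposited tables. The 6 RNA-Seq libraries, 1 per hen, came from the magnum of Hy-Line white hens (Hy-line in the labels). The 3 laying hens, aged 35 weeks, were taken 3 h after ovulation, with an egg in the magnum. The 3 non-laying hens, aged 35 to 60 weeks, were drawn from several flocks and had an atrophied oviduct and no maturing ovarian follicles at necropsy. Laying status, age and flock therefore cannot be told apart here. The p-values set the difference between these groups against the variation between hens, and they cannot assign that difference to laying status alone.

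The 4 proteins have different origins and roles. The tubular gland cells of the magnum make ovomucoid together with the other bulk egg-white proteins under the control of oestrogen and progesterone. Avidin is known as a product of the goblet cells of the surface epithelium and is induced by progesterone. Ovomucoid is a Kazal-type inhibitor of trypsin, avidin binds biotin and so withholds it from microbes, orosomucoid 1 (ovoglycoprotein) is a glycoprotein of the lipocalin family, and clusterin is a secreted chaperone that keeps unfolded proteins in solution.

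The identifier of AVD is ENSGALG00000023622, a protein-coding gene on chromosome Z, 9164721 to 9165903 (Galgal 5.0). ORM1 (ENSGALG00000005099) lies on chromosome 17, 5326466 to 5328212, and CLU (ENSGALG00000043051) on chromosome 3, 105644982 to 105652231, in the same build. The exons of the 3 genes add up to 587, 789 and 1930 bp in the deposited annotation. OVM (ENSGALG00000003512) carries no name or position in the files used here, and its name was taken from the list by which the genes were chosen. Reads of AVD may be shared with near-identical copies, since the RefSeq gene table for the GRCg7b assembly lists AVDL and AVR2 beside AVD on chromosome Z. The AVD counts were not whole numbers in 5 of the 6 libraries, whereas those of OVM, ORM1 and CLU were whole in all 6. Whether reads of AVD were divided with these copies was not tested, and its level is uncertain to that extent.

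The qPCR primers designed by the study for AVD are shown because AVD was the gene of the 4 with the largest change, and they bound the stretch of its cDNA that the qPCR amplified. They have 20 and 18 nucleotides and are written 5′ to 3′, in lower case throughout.
AVD forward: tcaaagagtcaccactgcat
AVD reverse: ttgatgccgaccctggta

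Total counts per library ranged from 18840068 to 25763750. The most abundant gene of the tables, ENSGALG00000012869, which they list without a name, took 49.4% to 53.6% of the counts in laying hens and 1.33% to 36.5% in non-laying hens. TMM scaling of the library sizes (trimmed mean of M-values) was used, with factors between 0.445 and 0.622 in laying hens and between 1.19 and 2.94 in non-laying hens. Levels per length are given as RPKM (reads scaled to the length of the gene and the total count, without TMM). Scaled levels are given as CPM (counts relative to the TMM-scaled library size). A call needed a fold change above 3 with an adjusted p (Benjamini-Hochberg) below 0.05, in edgeR's quasi-likelihood test. Of 12499 genes tested, 623 (4.98%) were called, 160 (1.28%) higher and 463 lower in laying hens. Of the 4 egg-white genes, AVD was the only one called.

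AVD rose in laying hens by more than any other tested gene. It had 22312, 25779 and 12542 counts in laying hens 1, 2 and 3, or 1516, 1705 and 856 RPKM. The non-laying hens 1, 2 and 3 had 93, 67 and 168 counts, or 6.97, 4.58 and 15.2 RPKM. The groups did not overlap, and the lowest laying hen was far above the highest non-laying hen both in counts and in RPKM. By share of counts, 0.464% of the tested genes were higher in every laying hen than in every non-laying hen. By scaled CPM it was 15.1%. The scaled level averaged 1483 ± 591 CPM with laying and 2.56 ± 0.418 CPM without (SD, n = 3 each). The log2 fold change was 9.17 (standard error 0.56, edgeR adjusted p = 0.00133), the highest value and the lowest p of the 12499 genes. By RPKM, without TMM scaling, the means of the groups differed 153-fold.

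The base of this fold, the AVD level of the non-laying hens, rests on few counts. After TMM scaling, the SD of log2 CPM of AVD was nevertheless smaller within the non-laying group (0.22) than within the laying group (0.65). By RPKM, without TMM, this was reversed. The highest hen was 3.31-fold above the lowest in the non-laying group and 1.99-fold in the laying group. As CPM without TMM scaling, AVD had 4.09 (95% Wilson interval 3.34 to 5.01), 2.69 (2.12 to 3.41) and 8.90 (7.67 to 10.4) in non-laying hens 1, 2 and 3. The value of hen 3 lay above both others beyond counting error, and the intervals cover that error only, as PCR copies of a molecule were not marked. After TMM scaling the 3 hens came close together, at 2.38, 2.26 and 3.03 CPM. With each hen left out in turn, AVD was called in 6 of 6 fits, at log2 fold changes from 8.91 to 9.47 and edgeR adjusted p-values from 0.000916 to 0.0162.

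**Figure D1:**
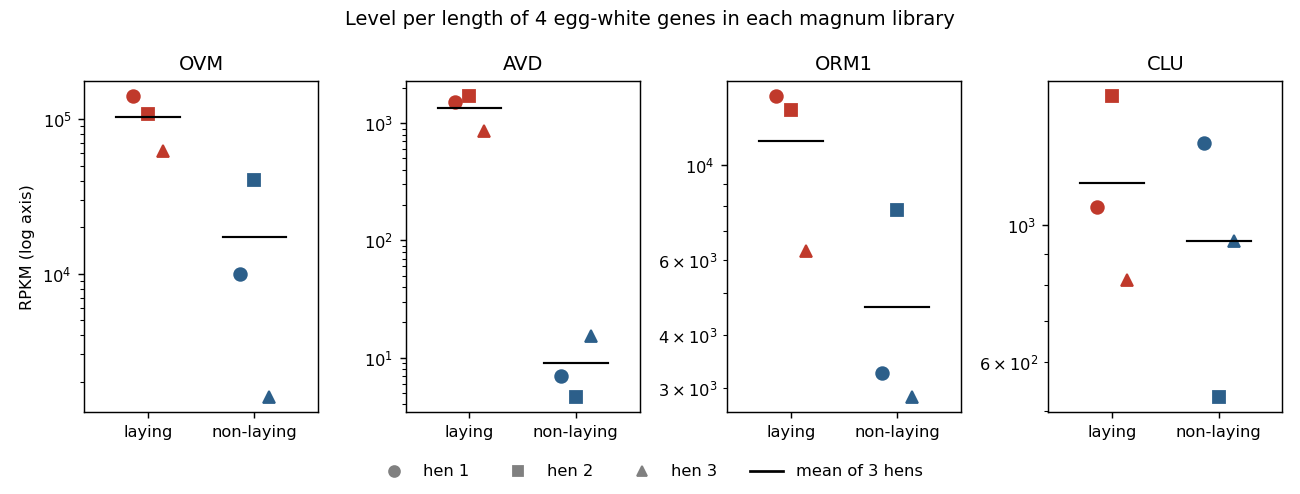
RPKM of OVM, AVD, ORM1 and CLU (log axes, a separate range in each panel) in the 3 laying (red) and 3 non-laying (blue) hens, with symbols for the hens and a line at the mean of each group. The groups are apart for OVM and AVD and overlap for ORM1 and CLU. Laying hen 3 is the lowest laying hen in all 4 panels.

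OVM was the most abundant of the 4 genes in laying hens and varied most between the non-laying hens. It reached 140937, 107139 and 62562 RPKM in laying hens 1, 2 and 3, while non-laying hens 1, 2 and 3 had 9951, 40166 and 1583 RPKM. The groups did not overlap, but non-laying hen 2 came near laying hen 3. By share of counts, 0.464% of the tested genes separated the groups in this direction, and by scaled CPM 15.1% did. OVM ranked 2, 2 and 3 by RPKM among all 19152 genes in laying hens 1, 2 and 3. Its ranks were 4, 2 and 41 in the non-laying hens 1, 2 and 3. Its share of the counts averaged 8.31% ± 2.96 with laying and 1.40% ± 1.65 without (SD, n = 3 each).

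The fold change of OVM was large, and its error was large as well. After scaling, OVM had 247028, 141494 and 85624 CPM in laying hens 1, 2 and 3. The non-laying hens 1, 2 and 3 had 4743, 27354 and 439 CPM. The highest non-laying hen was 62.3-fold above the lowest. The SD of log2 CPM within the non-laying group was 2.99, larger than that of 99.8% of the tested genes, whose median was 0.37. The log2 fold change was 3.87 (standard error 1.71), and OVM was not called (edgeR adjusted p = 0.192). Without non-laying hen 2 the log2 fold change was 5.94 (edgeR adjusted p = 0.135). The range without 1 hen was 3.31 to 5.94, at adjusted p-values of 0.106 to 0.417, and OVM was called in 0 of these 6 fits.

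ORM1 was the second most abundant of the 4 in 5 of 6 libraries. Laying hens 1, 2 and 3 had 14498, 13441 and 6277 RPKM, and non-laying hens 1, 2 and 3 had 3258, 7844 and 2852 RPKM. On this scale the groups overlapped, since non-laying hen 2 was above laying hen 3. After TMM scaling they did not, as for 15.1% of the tested genes in this direction. Laying hens 1, 2 and 3 had 25711, 17061 and 8257 CPM, and non-laying hens 1, 2 and 3 had 1494, 5193 and 765 CPM. The log2 fold change was 2.78 (standard error 0.92), and ORM1 was not called (edgeR adjusted p = 0.102). Leaving out non-laying hen 2 raised the log2 fold change to 3.92 (edgeR adjusted p = 0.0620), and ORM1 was called in 0 of 6 fits that left out 1 hen.

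CLU had similar levels per length in both groups. It had 1073, 1622 and 815 RPKM in laying hens 1, 2 and 3, while non-laying hens 1, 2 and 3 had 1363, 526 and 945 RPKM. Non-laying hen 1 was above laying hens 1 and 3, and the mean of 1170 ± 412 RPKM (SD, n = 3) in laying hens differed from that of 945 ± 419 RPKM (SD, n = 3) in non-laying hens by less than the spread between hens. TMM scaling separated the groups, as it did for 15.1% of the tested genes in this direction. Laying hens 1, 2 and 3 had 3729, 4034 and 2102 CPM, and non-laying hens 1, 2 and 3 had 1225, 683 and 497 CPM. The log2 fold change was 2.04 (standard error 0.52), and the edgeR adjusted p of 0.0511 fell just outside the threshold. Leaving out 1 hen gave log2 fold changes from 1.79 to 2.48 and adjusted p-values from 0.0535 to 0.171.

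**Figure D2:**
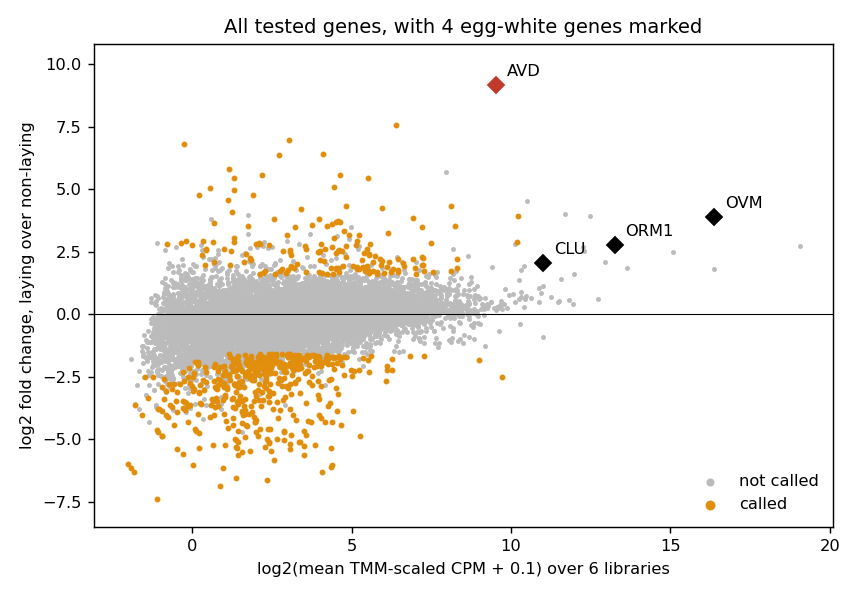
Log2 fold change, laying over non-laying, against the log2 mean TMM-scaled CPM of the 12499 tested genes (grey not called, orange called), with the 4 egg-white genes as diamonds (red called, black not called). AVD is the highest point at 9.17, and OVM, ORM1 and CLU lie among the most abundant genes at 3.87, 2.78 and 2.04.

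The calls of OVM, ORM1 and CLU depended on the test. The study used DESeq2, as built into Array Studio, at the same thresholds, and had picked ORM1 as well as AVD. CLU also appears in the comparison deposited by the authors, whose values were not used here, and OVM does not. In DESeq2 as run here, at nearly the same fold changes, all 4 genes were called. The DESeq2 adjusted p-values were 0.0117 for OVM, 0.000278 for ORM1 and 1.99e-05 for CLU. In that fit 274 of 12499 genes were called and higher in laying hens, which is 2.19%. By edgeR, 3 of the 4 genes had an unadjusted p under 0.05 (ORM1 0.0155, CLU 0.00388 and AVD 1.06e-07), against 26.5% of all tested genes in either direction, and the unadjusted p of OVM was 0.0516. In scaled CPM the groups did not overlap for any of the 4 genes, with the laying hens higher, as for 15.1% of the tested genes.

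Scaling raised the fold changes of all 4 genes, though not by the same amount. On total counts without scaling, the median log2 fold change of all tested genes was -1.80, against 0.00 with TMM. The unscaled log2 fold changes were 7.26 for AVD, 2.57 for OVM, 1.29 for ORM1 and 0.31 for CLU. Relative to the median gene they were 9.06, 4.37, 3.09 and 2.11, close to or above the scaled values. Without scaling AVD and OVM were called (edgeR adjusted p = 3.75e-09 and 0.00854). ORM1 had an adjusted p of 0.0426 at a fold change of 2.45, below the threshold of 3, and CLU had an adjusted p of 0.555. In that fit 47 genes were called and higher in laying hens, which is 0.376%, and 7849 were called and lower.

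The calls of the 4 genes are read against how many tested genes each fit called as higher in laying hens. That share was 1.33% with DESeq2 size factors in edgeR, 1.02% with upper-quartile factors, 1.28% with TMM set without the 20 most abundant genes and 0.984% with replicate number as a block. It was 1.17% with all genes of at least 1 count, 1.25% with genes of a mean of at least 10 counts, and 0.224% and 0.352% with limma on log2(RPKM + 1) and log2(RPKM + 0.1). Without laying hen 1, 2 or 3 it was 0.0919%, 0.0538% and 1.74%, and without non-laying hen 1, 2 or 3 it was 0.458%, 1.4% and 1.44%. It was 2.41% at a fold change above 2, 2.7% with no threshold on the fold change, and 3.26% without both hens numbered 3, a fit chosen after seeing the data. AVD was called in each of these settings. Those with a looser fold threshold reuse the reported fit, in which AVD was already called.

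**Figure D3:**
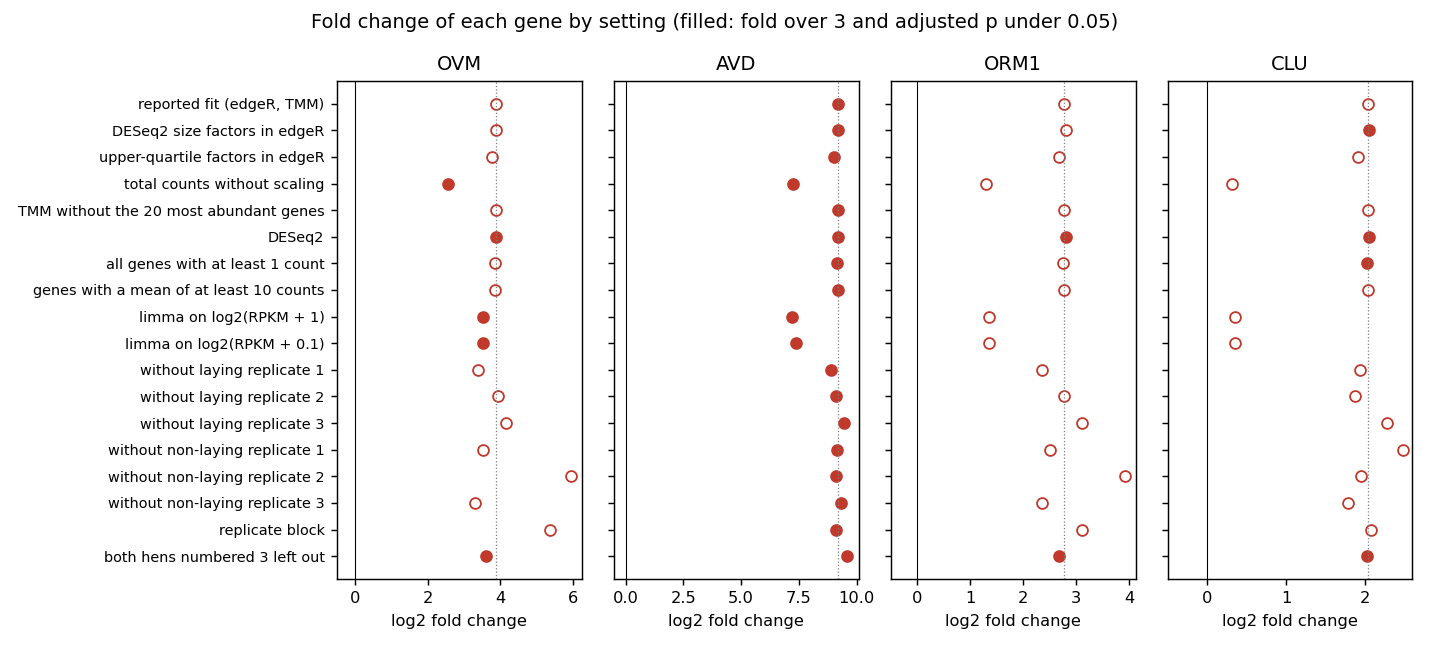
Log2 fold change of each of the 4 genes (x axis, a separate range in each panel) in the reported fit (edgeR with TMM, top) and each alternative below it, filled where the fold change was over 3 and the adjusted p under 0.05, with a dotted line at the reported value. All points of all 4 genes lie above 0, those of AVD are all filled, and those of all 4 genes move towards 0 where libraries are not scaled.

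As a share of all counts, a quantity that needs no scaling, the 4 genes together took 12.4%, 10.2% and 5.81% in laying hens 1, 2 and 3. It was lower in non-laying hens 1, 2 and 3, at 1.28%, 3.96% and 0.501%. The mean was 9.47% ± 3.35 (SD, n = 3) against 1.92% ± 1.81 (SD, n = 3), and the groups did not overlap (p = 0.1 in a two-sided exact permutation test, which can go no lower with 3 hens against 3; adjusted over the 5 shares compared, p = 0.167). OVM made up most of this sum in every hen but non-laying hen 3, in which ORM1 took 0.225%, CLU 0.146% and OVM 0.129% of the counts. Shares did not overlap for OVM and AVD, each with p = 0.1 in the exact test. Of the tested genes, 0.464% had a share higher in every laying hen than in every non-laying hen, against 15.1% by scaled CPM. The shares of ORM1 (p = 0.2) and CLU (p = 0.6) overlapped between the groups in the same exact test.

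By level per length, the order was OVM, ORM1, AVD and CLU in each of the 3 laying hens. AVD and CLU were neighbours in that order, with means of 1359 ± 445 and 1170 ± 412 RPKM (SD, n = 3 each). In laying hens 1, 2 and 3, AVD had 1516, 1705 and 856 RPKM, and CLU had 1073, 1622 and 815 RPKM. The gap was narrow in laying hens 2 and 3, and the difference within hens was not tested. In non-laying hens 1 and 2 the order was OVM, ORM1, CLU and AVD. In non-laying hen 3 it was ORM1, OVM, CLU and AVD, with ORM1 at 2852 and OVM at 1583 RPKM. AVD ranked between 21 and 24 of all genes by RPKM in laying hens and between 6785 and 7654 in non-laying hens. CLU ranked between 22 and 25 in laying hens and between 41 and 108 in non-laying hens, although its RPKM was similar in both.

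Ratios of the genes within a library are the same under any scaling. In laying hens the ratios to OVM were narrow. OVM was 93.0, 62.9 and 73.1 times AVD by RPKM in laying hens 1, 2 and 3, and 9.72, 7.97 and 9.97 times ORM1. The ratio was wide in non-laying hens 1, 2 and 3, where OVM was 1428, 8768 and 104 times AVD. The same hens had OVM at 3.05, 5.12 and 0.555 times ORM1. On the log2 scale the ratio of AVD to OVM was -6.23 ± 0.28 (SD, n = 3) in laying and -10.09 ± 3.21 (SD, n = 3) in non-laying hens, with no overlap (two-sided exact permutation test, p = 0.1; adjusted over 3 ratios, p = 0.15). The ratio of ORM1 to OVM went the other way, at -3.20 ± 0.18 (SD, n = 3) in laying and -1.04 ± 1.68 (SD, n = 3) in non-laying hens, again without overlap (exact test, p = 0.1; adjusted p = 0.15). AVD was thus lower relative to OVM in each non-laying hen, and ORM1 was higher relative to OVM. The log2 fold change of OVM was 3.87, against a median of 0.00 over all tested genes. A gene with a smaller rise than OVM tends to a higher ratio to OVM in non-laying hens, and ORM1, at 2.78, was such a gene. How many other genes separated the groups relative to OVM was not counted. The gap for AVD was narrow at its closest, between -6.54 in laying hen 1 and -6.71 in non-laying hen 3.

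The ratio of CLU to OVM overlapped between the groups. On the log2 scale it was -7.04, -6.05 and -6.26 in laying hens 1, 2 and 3. The non-laying hens 1, 2 and 3 had -2.87, -6.25 and -0.74 (two-sided exact permutation test, p = 0.2; adjusted p = 0.2). Non-laying hen 2 was inside the range of the laying hens, and hens 1 and 3 were far above it. The difference between the group means was -3.16, and it lay between -4.64 and -1.89 with 1 hen left out.

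**Figure D4:**
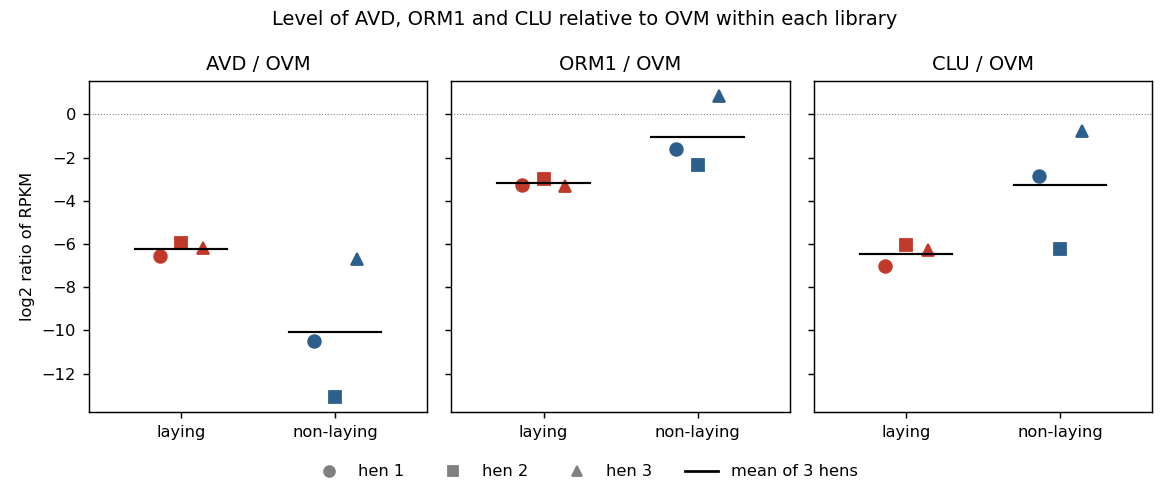
Log2 ratio of RPKM of AVD, ORM1 and CLU to OVM within each library (laying red, non-laying blue, a symbol for each hen, a line at the mean, dotted line at equal levels). The laying hens lie close together in each panel, and the non-laying hens are spread, with AVD to OVM lower and ORM1 to OVM higher in all 3 non-laying hens than in the laying hens.

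Against the most abundant gene of the tables, OVM did not separate the groups. There were 213, 178 and 95.9 OVM counts per 1000 counts of that gene in laying hens 1, 2 and 3. In non-laying hens 1, 2 and 3 there were 41.2, 89.3 and 96.9. Laying hen 3 and non-laying hen 3 were thus alike in this ratio, although their OVM shares of the library were 5.14% and 0.129%. AVD did not overlap, at 1.73, 2.02 and 0.939 counts per 1000 in laying hens 1, 2 and 3 against 0.0206, 0.00736 and 0.669 in non-laying hens 1, 2 and 3. The share of all genes that separated the groups in this ratio was not counted. Non-laying hen 3, which had the lowest share of the most abundant gene, came closest to the laying hens. ORM1 had 22.2, 21.5 and 9.25 counts per 1000 in laying hens 1, 2 and 3, while non-laying hens 1, 2 and 3 had 13.0, 16.9 and 169. CLU had 3.22, 5.07 and 2.35 in laying hens 1, 2 and 3, while non-laying hens 1, 2 and 3 had 10.6, 2.23 and 109.8. For both genes the groups overlapped, non-laying hen 3 was far above all other hens, and the mean log2 ratio was lower in laying hens. The differences in mean log2 ratio, laying minus non-laying, were 1.13 for OVM, 4.99 for AVD, -1.03 for ORM1 and -2.03 for CLU (two-sided exact permutation tests, p = 0.2, 0.1, 0.6 and 0.4, not adjusted), in ratios added after seeing the data.

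Some orders of the hens recurred among the 4 genes, and they were also frequent among all tested genes. Laying hen 3 had the lowest scaled CPM of the laying hens for all 4, as for 38.6% of the tested genes. OVM and ORM1 followed the order hen 2, hen 1, hen 3 from high to low in non-laying hens, as did 22.1% of the tested genes. AVD had its highest scaled CPM in non-laying hen 3, as did 42.7% of the tested genes, and CLU its highest in non-laying hen 1. Within the non-laying group the SD of log2 CPM was 2.99 for OVM, 1.40 for ORM1, 0.66 for CLU and 0.22 for AVD. Within the laying group it was between 0.51 for CLU and 0.83 for ORM1.

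The genes most like each of the 4 were taken by Pearson's r of log2 CPM over the 6 libraries among 6716 genes with a mean of at least 10 CPM. The r values include the difference between the groups and are given as a description. For AVD the closest was ACE (angiotensin-converting enzyme, r = 0.998), which had a log2 fold change of 4.23 (edgeR adjusted p = 0.0017). The genes closest to ORM1 included PSAT1, an enzyme of serine synthesis (r = 0.996), with a log2 fold change of 2.34 (edgeR adjusted p = 0.0398). Closest to CLU was TNFRSF10B, a death receptor (r = 0.994), with a log2 fold change of 1.82 (edgeR adjusted p = 0.0199). The 3 genes closest to OVM, led by ENSGALG00000004581 (r = 0.998), have no name in the sources used here. Neither have the remaining genes closest to AVD, ORM1 and CLU. The named genes were all called, whereas none of the unnamed ones was, at log2 fold changes from 0.65 to 1.58. The closest of all to ORM1 was an unnamed gene, ENSGALG00000007027 (r = 0.999), with a log2 fold change of 0.78 (edgeR adjusted p = 0.0872). Between the members, r was highest for OVM and ORM1 (0.98) and lowest for OVM and AVD (0.82).

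Related genes could be described only where the sources pair a symbol with an identifier. Of 143 symbols on 16 lists, 9 had an identifier, AVD and ORM1 among them. The study had picked all 9 as differentially expressed in these libraries, so their directions and calls are not independent evidence. Among other egg-white genes, AvBD11, an antimicrobial beta-defensin, had 2596, 2267 and 1847 CPM in laying hens 1, 2 and 3, while non-laying hens 1, 2 and 3 had 118, 280 and 37.7 CPM. Its log2 fold change was 3.94 (standard error 0.72, edgeR adjusted p = 0.0199), close to the 3.87 of OVM, which had a standard error of 1.71. Its non-laying hens had the order hen 2, hen 1, hen 3, as for OVM and for 22.1% of the tested genes. A gene described as similar to the Kazal-type inhibitor SPINK5 (LOC101749151, ENSGALG00000044388) had 89.6, 70.9 and 41.8 CPM in laying hens 1, 2 and 3. In non-laying hens 1, 2 and 3 it had 7.95, 13.7 and 1.23 CPM, and its log2 fold change was 3.15 (edgeR adjusted p = 0.0393). Its highest non-laying value was in hen 2 and its lowest in hen 3, which is the same frequent order.

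Besides ORM1, which was not called, 2 of the 10 listed lipocalins had an identifier. Both were called higher in laying hens, as were 1.28% of the tested genes. The study had already picked both in these libraries, so these calls say nothing about lipocalins as a family. APOD, apolipoprotein D, a carrier of small lipids, averaged 522 ± 220 CPM with laying and 112 ± 58.7 CPM without (SD, n = 3 each). Its log2 fold change was 2.22 (edgeR adjusted p = 0.0408). C8G, the gamma chain of complement component 8, averaged 14.0 ± 2.36 CPM with laying and 2.72 ± 0.399 CPM without (SD, n = 3 each). Its log2 fold change was 2.36 (edgeR adjusted p = 0.00749), near the 2.78 of ORM1. The calls of genes other than OVM, AVD, ORM1 and CLU were not followed through the alternatives.

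Of 38 marker symbols for epithelial, ciliated, muscle, stromal, endothelial, blood and liver cells, 3 had an identifier, so the makeup of the samples could not be described. The study had already picked these 3 as differentially expressed in these libraries, so their calls are not independent evidence. Of the 12499 tested genes, 463 were called lower in laying hens. The stromal genes COL3A1, a fibrillar collagen, and LUM (lumican) were lower in laying hens by edgeR, with log2 fold changes of -2.53 and -1.84 (adjusted p = 0.0129 and 0.00912). The leukocyte gene PTPRC (CD45) was lower as well, at -2.05 (adjusted p = 0.0286 by edgeR). In non-laying hens 1, 2 and 3, PTPRC had 12.1, 14.1 and 34.1 CPM and COL3A1 had 1965, 1371 and 957 CPM. LUM had 81.1, 56.8 and 75.0 CPM in the same hens. The hen lowest in OVM, hen 3, was thus the highest in PTPRC, as for 42.7% of the tested genes. It was the lowest in COL3A1 but not in LUM, which was lowest in hen 2, so the stromal genes did not share an order. Fewer gland cells and less mRNA per cell cannot be told apart in such bulk samples, and the part of other cells in the values of the 4 genes was not tested.

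The length behind the RPKM values bears on the levels per length. Counts divided by RPKM gave 587 bp for AVD and 789 bp for ORM1 in all 6 libraries, as annotated. CLU was computed with 1546 or 1547 bp, less than its annotated 1930 bp. For OVM the length was 780 bp in laying hen 1 and between 812 and 821 bp in the other 5 libraries, and the RefSeq gene table lists 2 transcripts of the gene with the synonym OVM. At an equal share of counts, the RPKM of OVM is therefore slightly higher in laying hen 1 than in the other hens. Counts and CPM do not use this length, and which length is right was not tested.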

How the data were processed

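RNA-Seq libraries of the magnum of 3 laying and 3 non-laying hens were used. Read cleaning (Prinseq), alignment to Galgal 5.0 and counting (Array Studio) were done by the authors, who deposited estimated counts per gene (expected counts) without normalization. Between 5.84% and 8.69% of the values in a library were fractional. The deposited RPKM values are relative to the sum of these counts. A deposited table of the authors' comparison holds a signed fold change (score), p-values, and a mean signal per group from DESeq2. These values were not used, and only names, positions and exon lengths were taken from it.

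Counts were rounded, filtered by filterByExpr, scaled by TMM and compared with edgeR 4.0.16 (glmQLFit, glmQLFTest, two-sided, no covariates, Benjamini-Hochberg adjustment) in R 4.3.3. The standard error is the log2 fold change divided by the root of the F statistic. Alternatives used DESeq2 1.42.0, limma 3.58.1 on log2(RPKM + 1) or log2(RPKM + 0.1), other scalings and filters, and each hen left out. Shares and ratios were compared by exact permutation over the 20 splits of the hens. The genes, lists and tests were chosen with earlier results of these data known. Genes named besides the 4 are, from each list, up to 4 called members of largest fold change and the tested member of highest mean RPKM, and, for each of the 4, the 3 genes with the highest r, of which those with a name and the closest to OVM are given. No list had 80% of its symbols paired. Libraries held 18840068 to 25763750 counts. Figures were drawn with matplotlib 3.10.9.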

Additional observations from a re-analysis of the deposited data

How the results depend on the processing

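All 4 genes kept a higher level in laying hens under all 19 alternatives. AVD was called in every one, at log2 fold changes from 7.19 to 9.60. The log2 fold changes ranged from 2.57 to 5.94 for OVM, 1.29 to 3.92 for ORM1 and 0.31 to 2.48 for CLU. Without scaling of the libraries, the rise of CLU was small. It was 0.31 on total counts (edgeR adjusted p = 0.555) and 0.355 in both limma fits (limma adjusted p = 0.481 and 0.468). The alternatives with a fold change above 2 and with no fold threshold reuse the reported fit. Their directions and their call of AVD followed from that fit and add nothing to it. Relative to the most abundant gene, ORM1 and CLU were lower in laying hens (-1.03 and -2.03), without separating the groups. OVM was called on total counts without scaling (2.57), with DESeq2 (3.89), with limma on log2(RPKM + 1) or log2(RPKM + 0.1) (3.51 in both), and, in a fit chosen after seeing the data, without both hens numbered 3 (3.60). ORM1 was called with DESeq2 (2.80) and without both hens numbered 3 (2.68). CLU was called with DESeq2 (2.06), with DESeq2 size factors in edgeR (2.06), with all genes of at least 1 count (2.02) and without both hens numbered 3 (2.02). The cause of these changes was not tested. For CLU the edgeR adjusted p stood at 0.0497, 0.0466 and 0.00721 in the last 3 of these fits, against 0.0511.

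The count of called genes, 623, became 7896 without scaling (47 higher in laying hens), 966 with DESeq2, 3845 and 7040 with limma, 939 without a fold threshold, 996 without both hens numbered 3, and 16 to 639 with 1 hen left out. It was 20 and 16 without laying hens 1 and 2 and 285 without non-laying hen 1. With replicate number as a block it was 397, and the log2 fold changes were 5.35, 9.10, 3.10 and 2.08 for OVM, AVD, ORM1 and CLU, with no call changed. Same-numbered hens are different animals, and their deviations correlated at 0.16, -0.06 and 0.02. Those of different-numbered hens correlated between -0.14 and 0.12. With 3 hens in each group, these values cannot decide whether the numbers pair the hens in some other way. Scaling to TBP was not run, because no identifier is paired with TBP.

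With the most abundant gene left out of the total, the differences in share between the groups were 14.9 (OVM), 0.163 (AVD), 1.33 (ORM1), 0.190 (CLU) and 16.6 (sum) percentage points, in place of 6.91, 0.0793, 0.533, 0.0348 and 7.55. As shares of summed RPKM they were 12.4 (OVM), 0.196 (AVD), 0.934 (ORM1), 0.0247 (CLU) and 13.5 (sum). The difference for CLU was -0.00014 without laying hen 2, and at most 0.0671 with another hen left out. The differences in log2 ratio to OVM (3.86 for AVD, -2.16 for ORM1, -3.16 for CLU) were 3.88, -2.14 and -3.14 as ratios of counts. Leaving out 1 hen gave 2.36 to 5.55 for AVD, -2.82 to -1.21 for ORM1 and -4.64 to -1.89 for CLU.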
